A study of Arabidopsis thaliana with 4 samples.

Results

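The genes described here carry the locus numbers AT2G07620 to AT2G07840, the range of *Arabidopsis thaliana* chromosome 2 that holds a copy of mitochondrial DNA beside the centromere. All rows of the gene count tables in this range were taken, which gave 122 of the 32833 rows. Ratios were formed only for genes with 10 or more counts in at least 2 libraries, a condition that 25 genes met. The 4 libraries came from seedlings of 14 days, 2 from the wild type Col-0 and 2 from the T-DNA line *mettl4-1*, both grown in long days at 22 °C by the labels and both of Columbia background. In *mettl4-1*, the only mutant allele that the labels name, the T-DNA sits in exon 1 of METTL4 (AT1G19340), the enzyme that methylates adenosine in U2 snRNA. The deposited table of *mettl4-1* replicate 2 names another allele and replicate number, so its identity rests on the sample labels alone. Nothing in the labels shows that replicates were separately grown plants, so the p-values measure only the spread between these libraries.

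Fragments of mitochondrial DNA enter plant nuclei again and again, and the Columbia accession is known for an unusually large one on chromosome 2, longer in the living plant than in the reference assembly. Such copies hold genes of the respiratory chain and the mitochondrial ribosome, but they lie outside the organelle that transcribes and edits them, and they gather mutations, often at methylated cytosines. Plant mitochondrial transcripts have many cytosines edited to uridine, and a poly(A) tail, which the mRNA library kit selects, marks them for decay.

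The reference sequence placed most of these genes where the label says. A megablast comparison of chromosome 2 with the mitochondrial genome (TAIR10.1, RefSeq) found 19 matching blocks of at least 99.56% identity between positions 3239038 and 3509765, a stretch of 270728 bp of which 99.6% matched. The blocks covered 72.2% of the 367808 bp of mitochondrial DNA, and the longest was 50638 bp. Within them 185 bases differed, 0.686 per kb. Read from the mitochondrial base to the nuclear one, 102 of these (55.1%) were C-to-T or G-to-A and 15 (8.11%) were the opposite transitions.

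Of the 122 genes, 112 lay inside this stretch (91 annotated as protein coding and 21 as tRNA) and 10 lay outside it. The label therefore did not hold for these 10. They had no match to mitochondrial DNA, and they included the transporter gene ABCC13 (AT2G07680) and the replication helicase gene MCM5 (AT2G07690) just right of the insertion, 5 further protein-coding genes and 3 noncoding RNA genes several megabases away. The exons of 105 of the 112 inside genes matched mitochondrial DNA over their whole length, and those of 81 had no differing base or gap in the matched part. In 77 of the 81 this part was the whole exon length, and in the other 4 a small part had no match. The DNA of these 77 genes holds the same letters as the mitochondrial copy, so their counts are uncertain as to the genome they came from. Edited bases, by which reads of mitochondrial RNA could differ, were not examined. The strand and multiple-mapping settings of the counting are not given in the sources used here, which leaves counts of overlapping and antisense genes uncertain as well.

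The sequences below show how alike the 2 genomes are at the genes to which the results return. For 4 genes whose exons are identical to mitochondrial DNA, the first 60 bases of the mitochondrial reading frame are given as they stand in the insertion, with the first codon in capitals. The first pair, in *nad3* and *rps12*, lies at chr2:3270008-3270067 and chr2:3270410-3270469 on the plus strand, *cox3* lies at chr2:3312592-3312651 on the minus strand, and *cob* lies at chr2:3450863-3450922 on the plus strand.
AT2G07751 (*nad3*): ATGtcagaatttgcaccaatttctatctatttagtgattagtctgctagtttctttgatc
AT2G07675 (*rps12*): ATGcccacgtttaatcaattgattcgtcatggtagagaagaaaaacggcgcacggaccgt
AT2G07687 (*cox3*): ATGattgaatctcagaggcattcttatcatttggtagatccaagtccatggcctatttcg
AT2G07727 (*cob*): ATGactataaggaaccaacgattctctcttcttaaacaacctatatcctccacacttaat

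Other genes carry a few bases by which the genomes can be told apart. In AT2G07698, which overlaps *atp1*, 1 exonic base differs, and it is in capitals in the 61 bases around it (chr2:3361898-3361958, plus strand) beside the mitochondrial version. The same is shown for AT2G07674 (chr2:3269393-3269453, plus strand), a gene upstream of *nad3*, and for AT2G07678 (chr2:3281419-3281479, plus strand), one of the genes with the largest changes.
AT2G07698, insertion: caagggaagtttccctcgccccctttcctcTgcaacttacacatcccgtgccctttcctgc
AT2G07698, mitochondrial: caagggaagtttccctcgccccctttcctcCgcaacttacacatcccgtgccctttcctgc
AT2G07674, insertion: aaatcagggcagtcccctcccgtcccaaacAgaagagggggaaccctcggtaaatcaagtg
AT2G07674, mitochondrial: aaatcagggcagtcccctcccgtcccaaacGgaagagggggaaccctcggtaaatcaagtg
AT2G07678, insertion: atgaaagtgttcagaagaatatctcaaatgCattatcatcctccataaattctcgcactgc
AT2G07678, mitochondrial: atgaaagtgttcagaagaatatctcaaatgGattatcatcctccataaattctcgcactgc

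The 2 tRNA genes that passed the condition for ratios, both tRNA-Tyr, differ from each other by 8 bases that AT2G07765 (chr2:3497358-3497440, plus strand) has and AT2G07792 (chr2:3332685-3332759, plus strand) lacks. These bases are in capitals, and 7 placements of the gap align equally well. Each of the genes is found once, unchanged, in mitochondrial DNA.
AT2G07765: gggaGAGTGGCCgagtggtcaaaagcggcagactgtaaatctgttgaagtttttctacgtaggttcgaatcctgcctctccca
AT2G07792: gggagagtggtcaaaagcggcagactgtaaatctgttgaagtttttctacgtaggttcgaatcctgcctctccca

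RNA counted on the insertion was scarce in every library and more abundant in *mettl4-1*. The 112 inside genes together had 646 and 782 counts in Col-0 replicates 1 and 2, and 2297 and 1016 counts in *mettl4-1* replicates 1 and 2. As counts per 1e6 of the library this was 11.8 (95% exact binomial interval 10.9 to 12.8) and 11.8 (11.0 to 12.7) in Col-0, against 44.2 (42.5 to 46.1) and 19.98 (18.8 to 21.2) in *mettl4-1*. The Col-0 libraries were alike, both *mettl4-1* libraries lay above them, and *mettl4-1* replicate 1 stood apart from replicate 2. Each interval comes from the counts of its own library, so it covers counting error only and no spread between libraries. As the reads carry no molecular identifiers, duplicates of a molecule cannot be told apart, and the intervals may be too narrow.

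As normalized counts (CPM, counts scaled by edgeR's TMM factors to a library of 1e6), the sum over the inside genes was 11.7 ± 0.00402 in Col-0 and 32.6 ± 18.2 in *mettl4-1* (SD, n = 2 each). The mean of the log2 values differed by 1.35, or 2.55-fold. *mettl4-1* replicate 1 lay 3.87 times and replicate 2 lay 1.68 times above the Col-0 mean, and the SD within *mettl4-1* was about as large as the difference between the genotypes. The exact permutation test of this sum gave p = 0.333 (two-sided), the smallest that 2 libraries against 2 allow. In these whole seedlings, a change in the number of cells of a type and a change in RNA per cell cannot be told apart.

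**Figure D1:**
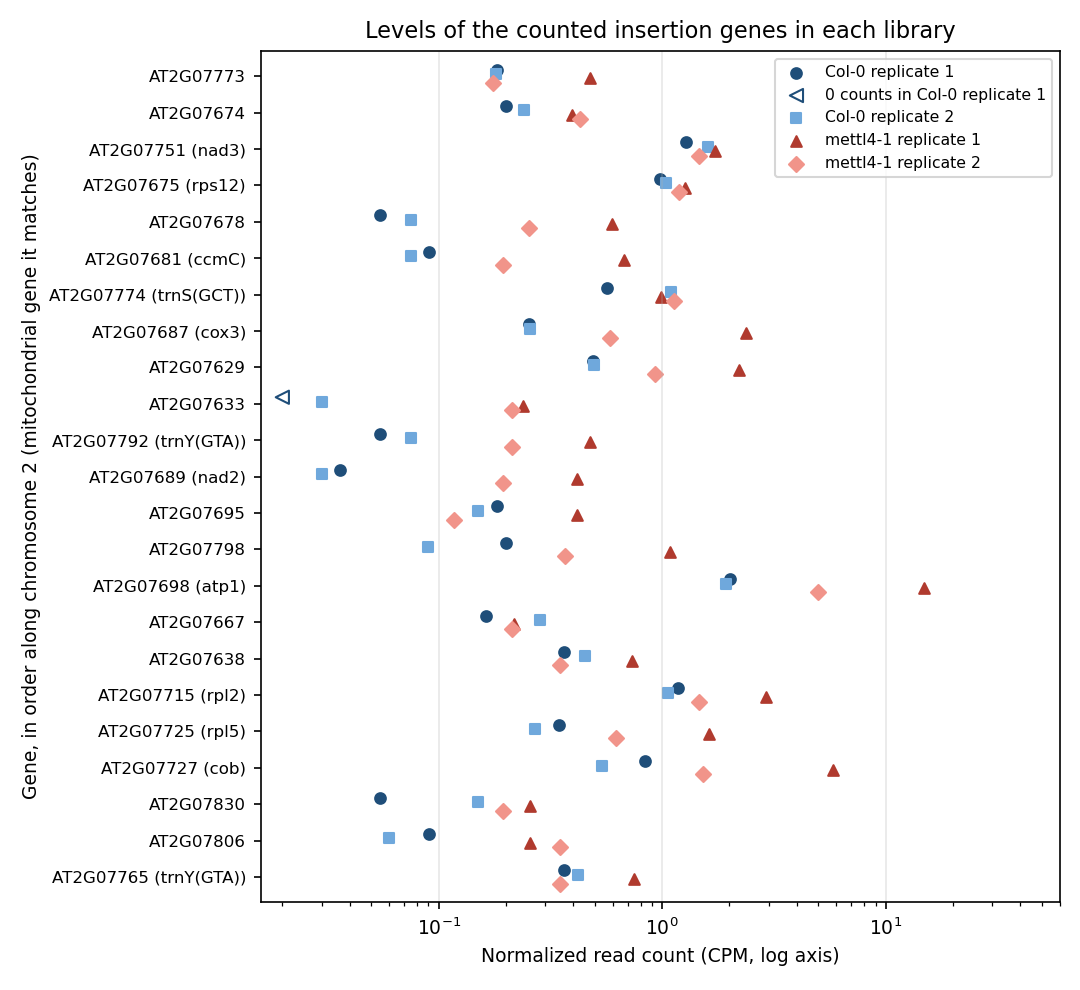
Normalized read count (CPM, log axis) of the 23 insertion genes with 10 or more counts in at least 2 libraries, in order along chromosome 2, with the matching mitochondrial gene in brackets. Each point is 1 library and an open triangle marks 0 counts. The *mettl4-1* replicate 1 points lie farthest right for 19 of the 23 genes, and the Col-0 and *mettl4-1* points do not overlap for 16. Of these 16, 6 had under 10 counts in both Col-0 libraries and passed through *mettl4-1*.

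Of the 112 inside genes, 40 had no count in any library, 49 had counts but too few for ratios, and 23 passed the condition for ratios. edgeR's own filter on low counts passed 21 of these 23, all but AT2G07773 and AT2G07695, and the test gave 14 called higher in *mettl4-1* (a change of at least 1.5-fold with an unadjusted p under 0.05) and 0 called lower. Over all 21673 genes tested, 0.937% were called higher and 0.683% lower. With p-values adjusted over all genes tested, 8 inside genes were called higher, against a background of 0.314%, and 0 lower, against 0.323%. At an unadjusted p under 0.05, DESeq2 called 12 higher and limma-voom 15, and both called 0 lower. The calls of AT2G07715 and AT2G07674 ended under DESeq2.

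In 16 of the 23 genes both *mettl4-1* libraries lay above both Col-0 libraries, an order found for 22.8% of all genes tested. In the other 7 the genotypes overlapped, and in 0 genes were both *mettl4-1* libraries lower. The median log2 fold change of the 21 tested genes was 1.87, against 0.0015 over all genes tested.

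Part of these counts follows from the filter. In 6 of the 21 genes both Col-0 libraries were under 10 counts, so that these genes passed through *mettl4-1*, and all 6 were called higher. All 6 are also among the 16 without overlap. Of the 14 genes with 10 or more counts in both Col-0 libraries, tested or not, 8 had both *mettl4-1* libraries above both Col-0 libraries. Among the 12 tested genes with 10 or more counts in both Col-0 libraries, 7 were called higher, 5 of them with an adjusted p, and the median log2 fold change was 0.93. Without *mettl4-1* replicate 1, 11 inside genes were called higher, 4 of them with an adjusted p, and the median over the 21 genes was 1.02. Without Col-0 replicate 2, 5 were called with an adjusted p.

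The gene of the ATP synthase group with the most RNA was AT2G07698, annotated as the alpha subunit of the F1 part, which turns over ATP. Its exons (2444 bp, chromosome 2, 3361463 to 3364127) overlap mitochondrial *atp1* by 1507 bases in the sense direction. It had 2.02 and 1.92 CPM in Col-0 and 14.8 and 4.97 CPM in *mettl4-1*, from 111, 128, 747 and 256 counts. Both *mettl4-1* libraries were higher, and replicate 1 was well above replicate 2. The log2 fold change was 2.32 (SE 0.40, adjusted p = 0.0121), and 1.34 without *mettl4-1* replicate 1. This gene alone held 17.2% and 16.4% of what was counted on the insertion in Col-0, and 32.5% and 25.2% in *mettl4-1*. Without it the sum of the remaining 111 genes was still 3.14 and 1.51 times the Col-0 mean in *mettl4-1* replicates 1 and 2.

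Genes of complexes III and IV, which pass electrons to oxygen, showed the same order of libraries. AT2G07727 (3449534 to 3452776), which contains *cob*, the gene of cytochrome b, had 0.837 and 0.541 CPM in Col-0 and 5.80 and 1.52 CPM in *mettl4-1*. AT2G07687 (3311654 to 3312651), which contains *cox3*, a subunit of cytochrome c oxidase, had 0.255 and 0.255 CPM in Col-0 and 2.37 and 0.583 CPM in *mettl4-1*. In both genes the genotypes did not overlap, and *mettl4-1* replicate 1 was several times replicate 2. The log2 fold changes were 2.42 for AT2G07727 (SE 0.52, adjusted p = 0.0354) and 2.52 for AT2G07687 (SE 0.58, adjusted p = 0.0476), and both genes are identical to mitochondrial DNA in their exons. These values were 1.16 and 1.19 without *mettl4-1* replicate 1.

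AT2G07773 and AT2G07695, described as cytochrome b/b6 and cytochrome c oxidase subunit II-like proteins but lying on no annotated mitochondrial gene, showed another order of libraries. Of the 1671 stretches of 100 exon bases in AT2G07773, 1471 occur more than once in this part of chromosome 2. Its counts are therefore less certain and may not belong to this gene alone. AT2G07773 had 10 and 12 counts in the Col-0 libraries against 24 and 9 in those of *mettl4-1*, and AT2G07695 had 10 and 10 counts in the Col-0 libraries against 21 and 6 in those of *mettl4-1*. In both, *mettl4-1* replicate 1 was the highest and replicate 2 the lowest library by counts, so that the genotypes overlapped. Neither was tested.

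The complex I genes, whose products take electrons from NADH, did not move together. AT2G07689 (3336109 to 3336753), on part of *nad2*, had 2 and 2 counts in the Col-0 libraries against 21 and 10 in those of *mettl4-1*, a ratio of the pooled normalized counts of 9.24 with an exact counting interval of 3.27 to 36.0 and a log2 fold change of 3.12 (SE 0.67, adjusted p = 0.0341). AT2G07633 (3329660 to 3331324), described as an NADH-plastoquinone oxidoreductase subunit and on no annotated mitochondrial gene, had 0 and 2 counts in the Col-0 libraries against 12 and 11 in those of *mettl4-1*. Its pooled ratio was 13.7 (3.39 to 120) and its adjusted p 0.0379, and its 2 *mettl4-1* libraries were close to each other. In both genes the Col-0 libraries were at or under the floor of 3 counts. The log2 fold change of AT2G07689 was 2.49 without *mettl4-1* replicate 1.

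AT2G07751, identical to *nad3*, was among the best counted genes and did not differ beyond its spread. It had 1.27 and 1.61 CPM in Col-0 and 1.72 and 1.46 CPM in *mettl4-1*, from 70, 107, 87 and 75 counts. The 4 libraries overlapped. The log2 fold change was 0.13 (SE 0.19, adjusted p = 0.802 from edgeR's test), and with Col-0 replicate 1 left out it was −0.016.

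Of the genes for proteins of the mitochondrial ribosome, AT2G07725 (3447398 to 3449059, *rpl5*) had 0.346 and 0.270 CPM in Col-0 and 1.62 and 0.622 CPM in *mettl4-1*. AT2G07715 (3410597 to 3413161, *rpl2*), annotated as a nucleic acid-binding protein, had 1.18 and 1.07 CPM in Col-0 and 2.93 and 1.46 CPM in *mettl4-1*. Both genes were higher in both *mettl4-1* libraries. AT2G07725 had a log2 fold change of 1.87 (SE 0.43, adjusted p = 0.0492), and AT2G07715 had 0.96 (SE 0.28, unadjusted p = 0.0059 and adjusted p = 0.115 from edgeR's test). Without *mettl4-1* replicate 1, AT2G07725 had a log2 fold change of 1.02, and AT2G07715 had 0.38 and was no longer called. AT2G07715 was not called by DESeq2 either.

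AT2G07675, identical to *rps12* and 45 bases downstream of AT2G07751, had 0.982 and 1.04 CPM in Col-0 and 1.27 and 1.19 CPM in *mettl4-1*. The *mettl4-1* libraries were both slightly higher, with a log2 fold change of 0.28 (SE 0.19, adjusted p = 0.547 from edgeR's test). AT2G07674, 101 bases upstream of AT2G07751 on the same strand and without a known function, had 11 and 16 counts in the Col-0 libraries against 20 and 22 in those of *mettl4-1*. Here the *mettl4-1* libraries were alike, and the log2 fold change was 0.89 (SE 0.34, unadjusted p = 0.0265, adjusted p = 0.244). The call of AT2G07674 was lost without any 1 of the 4 libraries, with log2 fold changes between 0.77 and 1.03, and under DESeq2 (0.90).

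Cytochrome c biogenesis was represented by AT2G07681 (3287529 to 3292366), which overlaps 601 bases of *ccmC*, a gene for haem delivery to cytochrome c. Of its 1272 stretches of 100 exon bases, 936 occur more than once in this part of chromosome 2, which leaves its counts less certain. AT2G07681 had 5 and 5 counts in the Col-0 libraries against 34 and 10 in those of *mettl4-1*. The genotypes did not overlap, and *mettl4-1* replicate 1 was the highest library. The log2 fold change was 2.36 (SE 0.64, unadjusted p = 0.0039, adjusted p = 0.0919), and without *mettl4-1* replicate 1 it was 1.22 and not called.

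The 2 tRNA-Tyr genes whose sequences are given above differed in their counts. AT2G07792 had 3 and 5 counts in the Col-0 libraries against 24 and 11 in those of *mettl4-1*, with no overlap between the genotypes and a log2 fold change of 2.35 (SE 0.58, unadjusted p = 0.0020, adjusted p = 0.0626). AT2G07765 had 20 and 28 counts in the Col-0 libraries against 38 and 18 in those of *mettl4-1*. In AT2G07765 the genotypes overlapped, as *mettl4-1* replicate 2 was the lowest library after normalization (0.350 CPM, against 0.364 and 0.420 CPM in Col-0), and the log2 fold change was 0.48 (SE 0.37). Without *mettl4-1* replicate 1 these values were 1.67 for AT2G07792 and −0.17 for AT2G07765. The difference between the 2 genes was not tested. Of the 21 tRNA genes of the insertion, 16 had no count in any library. AT2G07774, a gene of no known function that contains 57 bases of a tRNA-Ser gene, had 31 and 73 counts in the Col-0 libraries against 50 and 58 in those of *mettl4-1*, and its Col-0 libraries lay apart by more than its genotypes (log2 fold change 0.32, SE 0.29).

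Among the remaining genes, all uncharacterized and on no annotated mitochondrial gene, 4 were called beside AT2G07674. AT2G07629 (3312873 to 3313502), which lies close to *cox3* on the same strand, had 0.491 and 0.495 CPM in Col-0 and 2.196 and 0.933 CPM in *mettl4-1*, a log2 fold change of 1.66 (SE 0.37, adjusted p = 0.0397). AT2G07678 had 3 and 5 counts in the Col-0 libraries against 30 and 13 in those of *mettl4-1* (log2 fold change 2.64, SE 0.58, adjusted p = 0.0371). AT2G07798, which ends upstream of AT2G07698, had 11 and 6 counts in the Col-0 libraries against 55 and 19 in those of *mettl4-1* (log2 fold change 2.35, SE 0.56, adjusted p = 0.0560). In these 3 genes *mettl4-1* replicate 1 was again the highest library, and the genotypes did not overlap. Without that library the log2 fold changes of AT2G07629, AT2G07678 and AT2G07798 were 0.92, 1.91 and 1.38.

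AT2G07806 was an exception to this order, with 5 and 4 counts in the Col-0 libraries against 13 and 18 in those of *mettl4-1*, so that replicate 2 was the higher (log2 fold change 2.00, SE 0.50, adjusted p = 0.0649). The last 3 genes were not called. AT2G07638 had 20, 30, 37 and 18 counts and AT2G07667 had 9, 19, 11 and 11 counts in Col-0 replicates 1 and 2 and *mettl4-1* replicates 1 and 2, and their genotypes overlapped. Without *mettl4-1* replicate 1, AT2G07638 had a log2 fold change of −0.23, against 0.39 with it. AT2G07830 had 3, 10, 13 and 10 counts in that order, and after normalization its *mettl4-1* libraries were both higher (log2 fold change 1.07, SE 0.54, unadjusted p = 0.0747 from edgeR's test).

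The genes too scarce for ratios, added up, also had more counts in *mettl4-1*. The 89 inside genes under 10 counts in 3 or more libraries had 97 and 76 counts together in Col-0 against 242 and 117 in *mettl4-1*, which is 3.30 and 1.56 times the normalized Col-0 mean in *mettl4-1* replicates 1 and 2. For the directions that follow, no background share over equally scarce genes of the whole series was formed, and some rest on 1 or 2 counts in all. Of the 49 with counts, 42 had the higher pooled level in *mettl4-1* and 7 in Col-0. Examples of the former are AT2G07741, which matches *atp6* of the ATP synthase membrane part, with 3 and 1 counts in the Col-0 libraries against 12 and 5 in those of *mettl4-1*, and AT2G07768, which matches the cytochrome c biogenesis gene *ccmFN2*, with 1 and 1 counts in the Col-0 libraries against 10 and 3 in those of *mettl4-1*. Examples of the latter are AT2G07656, with 7 and 1 counts in the Col-0 libraries against 1 and 0 in those of *mettl4-1*, and AT2G07739, described as a Ycf1 protein, with 5 and 2 against 1 and 2. AT2G07734 (*rps4*) and AT2G07815 (*ccmFC*) had no count in any library. At 0 counts, an expected level of up to about 3 counts per library, or 0.0450 to 0.0593 CPM, cannot be told from absence.

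The order of the 3 highest levels was the same in Col-0 and in *mettl4-1* replicate 2, and differed in *mettl4-1* replicate 1. Per kb of exon, the highest mean levels in Col-0 were those of AT2G07765 (4.72 ± 0.483 CPM per kb, SD, n = 2), AT2G07751 (4.03 ± 0.661), AT2G07675 (2.67 ± 0.101) and AT2G07774 (1.40 ± 0.637). The first pair did not differ beyond their spread, and none of these 4 genes was called. AT2G07698 took place 8 in Col-0 with 0.806 ± 0.0279 CPM per kb. In *mettl4-1* replicate 1 it took place 3, at 6.05 CPM per kb, above AT2G07751 at 4.82 CPM per kb, and in replicate 2 it took place 5, where AT2G07765, AT2G07751 and AT2G07675 kept places 1, 2 and 3. Levels per kb of the tRNA genes, which are shorter than the fragments of such libraries, are less certain than the others. The 7 tested genes that were not called summed to 3.76 and 5.05 CPM in Col-0 and 5.93 and 4.88 CPM in *mettl4-1*, whereas the 14 called genes, which the call itself selects, summed to 5.86 and 5.23 CPM in Col-0 and 33.8 and 12.3 CPM in *mettl4-1*.

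**Figure D2:**
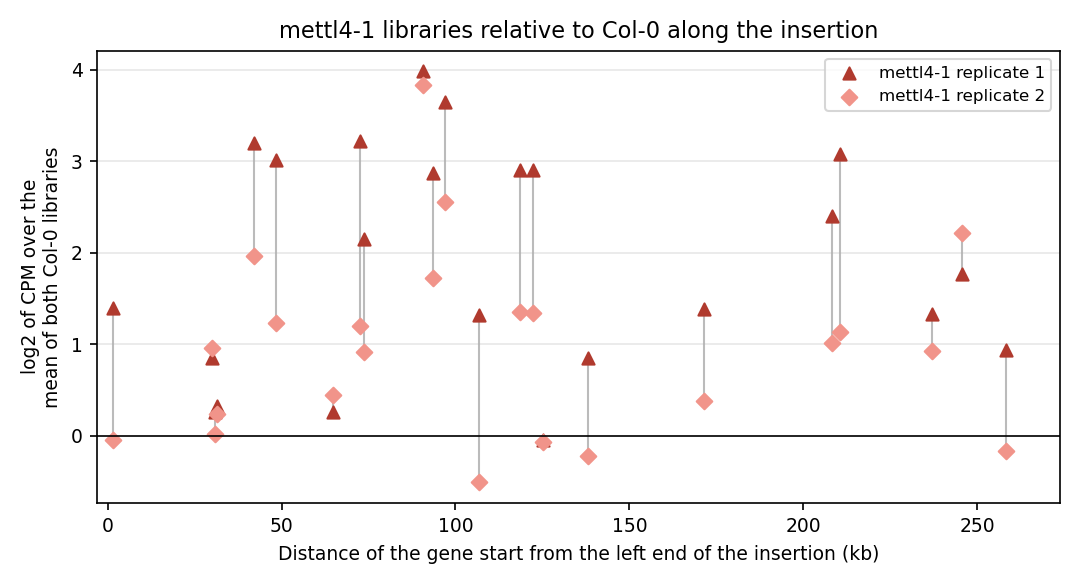
log2 of the normalized count in each *mettl4-1* library over the Col-0 mean, for the 23 insertion genes, against the distance of each gene's start from the left end of the insertion in kb. Grey lines join both libraries of a gene. Replicate 1 is above replicate 2 in 20 of the 23 genes, and AT2G07633 has the highest value in both. AT2G07633 had only 0 and 2 counts in the Col-0 libraries and passed the filter through *mettl4-1*.

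Genes with and without bases that differ from mitochondrial DNA were called. Of the 14 genes with ratios whose exons are identical to it, 8 were called higher, and of the 9 genes with a differing base, 7 were tested and 6 were called. Of these, 4 of the 8 and 2 of the 6 were under 10 counts in both Col-0 libraries and passed the filter through *mettl4-1*. With 10 or more counts in both Col-0 libraries, 4 of 8 identical genes (median log2 fold change 1.07) and 3 of 4 tested genes with a differing base (median 0.93) were called. The share of 100-base windows unchanged in mitochondrial DNA was compared with log2 fold change across the 19 tested genes long enough for such windows. Spearman's rho was −0.05 and Pearson's r was −0.06, as a description across genes that share the same 4 libraries. Some of the 19 passed the filter through *mettl4-1*, which favours a high change in them. These values therefore do not show whether identity and change are related. The summed counts were higher in *mettl4-1* in both sets. The 81 identical genes were 3.13 and 1.56 times the Col-0 mean in *mettl4-1* replicates 1 and 2. The 31 genes with a differing base or gap were 4.87 and 1.85 times that mean. AT2G07698 alone held 747 of the 1227 and 256 of the 474 counts of these 31 genes in *mettl4-1* replicates 1 and 2. In Col-0 it held 111 of 286 and 128 of 317. The sum of these genes without AT2G07698 was not formed. Because the counts are per gene, they do not show which base the reads carried at the differing positions.

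**Figure D3:**
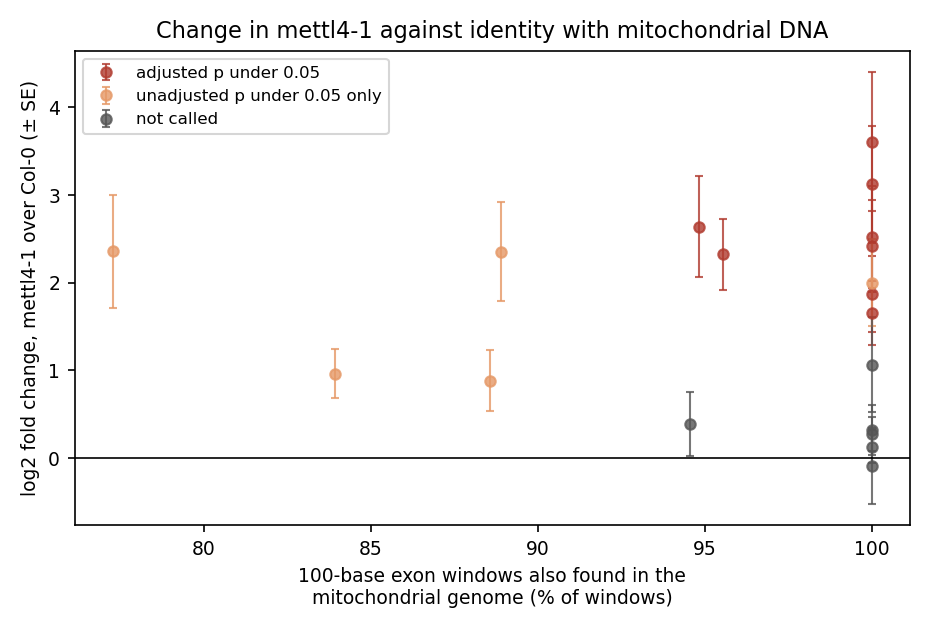
log2 fold change (*mettl4-1* over Col-0, ± SE) of the 19 tested insertion genes against the percentage of their 100-base exon windows that occur unchanged in the mitochondrial genome. Called genes lie along the whole range from 77.3% to 100%, and genes that were not called are found at 94.6% and at 100%. The gene at 77.3%, AT2G07681, was under 10 counts in both Col-0 libraries.

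By position on the mitochondrial map, 9 genes with ratios overlap a mitochondrial protein-coding gene, and 7 of them were called higher. Of the 3 that overlap a tRNA gene 1 was called, and of the 11 on no annotated mitochondrial gene 9 were tested and 6 called. With 10 or more counts in both Col-0 libraries, 5 of 7, 0 of 2 and 2 of 3 tested genes of these classes were called, with median log2 fold changes of 1.87, 0.40 and 0.89.

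The genes of the same locus range outside the insertion gave no such values. ABCC13 had 25.0 and 24.9 CPM in Col-0 and 27.3 and 27.98 CPM in *mettl4-1*, and MCM5 had 19.6 and 20.3 CPM in Col-0 and 20.7 and 21.4 CPM in *mettl4-1*. Both genes were higher in both *mettl4-1* libraries, but by little, with log2 fold changes of 0.15 for ABCC13 (SE 0.04, adjusted p = 0.110) and 0.08 for MCM5 (SE 0.05, adjusted p = 0.510). The 8 others had at most 2 counts in any library. Since ABCC13 and MCM5 hold most of the counts of the range, the sum over all 122 genes had a log2 fold change of 0.51. Of the 10 nearest tested genes on each side of the range, 0 of 20 were called in either direction, at 1.5-fold, and their median log2 fold change was −0.03. Their log2 fold changes lay between −0.28 and 0.76. Without regard to size, 0 of them were higher and 1 was lower with an adjusted p under 0.05 from edgeR's test.

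Other rows moved with the insertion. The 152 rows of the mitochondrial genome itself took 1654 and 1326 counts per 1e6 in Col-0 and 8031 and 3254 in *mettl4-1*. As in the insertion, *mettl4-1* replicate 1 was highest and replicate 2 next. Of these rows 39 were tested, and 29 were called higher, with a median log2 fold change of 1.70. Without *mettl4-1* replicate 1, 16 were called and the median was 0.64. Among the 35 tested rows with 10 or more counts in both Col-0 libraries the median was 1.51, beside 0.93 for the 12 insertion genes under the same condition. Of the counts of both sets together, the insertion held 0.709% (95% exact binomial interval 0.655 to 0.766) and 0.886% (0.825 to 0.950) in Col-0, against 0.548% (0.526 to 0.571) and 0.610% (0.573 to 0.649) in *mettl4-1*. Its share was thus lower in both *mettl4-1* libraries.

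AT2G07732 and AT2G07739 were the 2 insertion genes with exon windows of 100 bases also found in chloroplast DNA, and neither passed the condition for ratios. The chloroplast rows took 5273 and 5806 counts per 1e6 in Col-0 and 18741 and 7036 in *mettl4-1*. The 4 nuclear rRNA rows took 0.495% and 0.370% of the library in Col-0 and 3.65% and 1.25% in *mettl4-1*. rRNA, chloroplast and mitochondrial rows were each highest in *mettl4-1* replicate 1. The part of rRNA carry-over or of organelle RNA in the insertion counts was not tested.

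**Figure D4:**
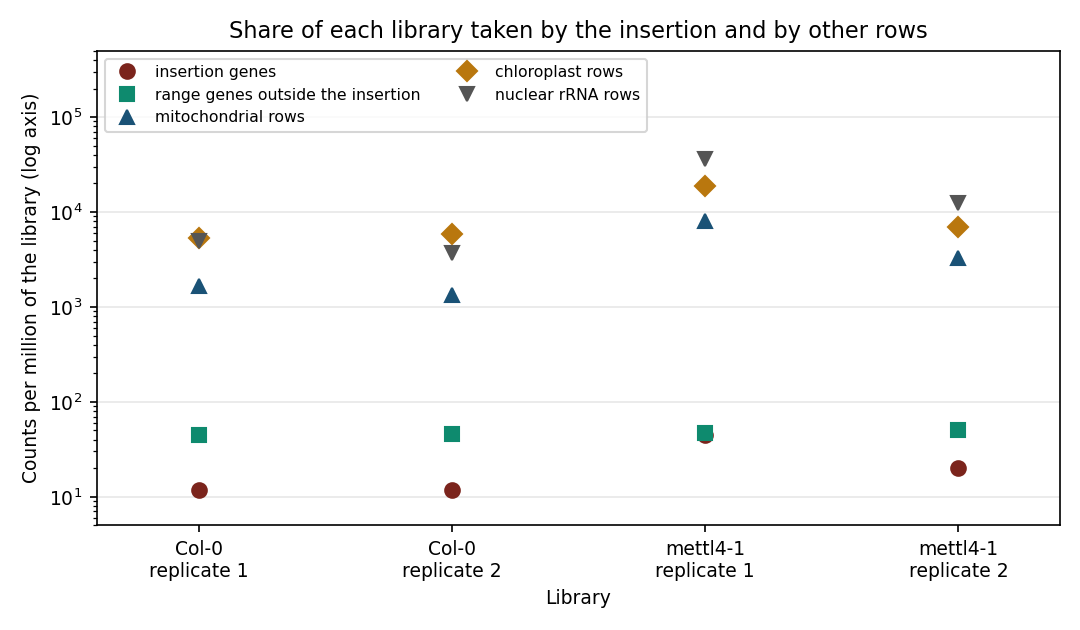
Counts per 1e6 counts of each library (log axis) taken by the 112 insertion genes, the 10 range genes outside the insertion, and the mitochondrial, chloroplast and nuclear rRNA rows. All but the outside genes are highest in *mettl4-1* replicate 1, where the insertion reaches 44.2.

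Nuclear genes for the same respiratory complexes were compared in the same fit. All 44 genes of a list of nuclear-encoded subunits of complexes I to IV, cytochrome c, ATP synthase and the alternative oxidase were tested, and 0 were called in either direction at 1.5-fold. Their log2 fold changes lay between −0.20 and 0.42, with a median of −0.03. An adjusted p under 0.05 without regard to size was reached by 1 gene that was higher, the alternative oxidase gene AOX1A with a log2 fold change of 0.20, and by 2 that were lower.

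The libraries held 50862075 to 66003824 counts. The targeted gene METTL4 had 355 and 413 counts in the Col-0 libraries against 35 and 46 in those of *mettl4-1* (log2 fold change −2.99), so that it was lower in both libraries labelled as mutant. The green tissue markers RBCS1A and RCA were abundant in all 4 libraries and slightly lower in *mettl4-1* (log2 fold changes −0.15, adjusted p = 0.0039, and −0.071, adjusted p = 0.0185). The root markers were present in all 4 libraries, and the flower genes AP3 and AG had between 9 and 24 counts. The seed storage genes SESA3 and CRU3 were present only at a low level or not at all in *mettl4-1* (0 and 0 counts, and 30 and 37 counts), against 544 and 660 and 1268 and 1534 counts in Col-0. Their part in the insertion counts was not tested.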

How the data were processed

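Per the labels and the study's methods, poly(A) RNA of 14-day seedlings was sequenced from 2 Col-0 and 2 *mettl4-1* libraries. The authors trimmed reads with Cutadapt 3.5, aligned them to TAIR10 with HISAT2 2.2.1, used SAMtools 1.13 to keep reads that mapped with high quality, and counted reads per gene with featureCounts 2.0.1. The threshold of that filter, which decides whether reads that fit both the insertion and the mitochondrial genome are kept, is not given in the sources used here. The deposited values are raw counts. The table of *mettl4-1* replicate 2 carries another allele and replicate number in its name, and the labels were followed. The hours of dark in the labels' source field differ between libraries (8, 9, 10 and 11), while their growth protocol gives 8. The temperature in the labels is also slightly above the one that the study's methods give for the plants used for RNA.

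The counts were tested in R 4.3.3 with edgeR 4.0.16 (TMM, filterByExpr with a minimum of 10 counts, quasi-likelihood test, genotype only), with Benjamini-Hochberg adjustment over 21673 genes. A log2 fold change above 0 means more RNA in *mettl4-1*. Each SE was derived from the F statistic. DESeq2 1.42.0 and limma 3.58.1 (voom), other filters and scalings, a replicate block and leaving out each library were alternatives. The steps were tested on simulated counts. Exons were compared with the mitochondrial genome with BLAST 2.17.0 at 95% identity or more. Names, positions and sequences are those of RefSeq for TAIR10.1, and its mitochondrial genes are named by that annotation. The mitochondrial count rows carry other tags and were not named, and whether their TAIR10 sequence equals the one used here is not given in the sources used here. Per library, 3 counts equal 0.0450 to 0.0593 CPM.

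The members and lists were chosen with earlier results of these data known. Genes were named if called, if among the 10 with most counts, or if they had a respiratory, ATP synthase, ribosomal or cytochrome c biogenesis description and passed the condition for ratios. AT2G07765, AT2G07638, AT2G07667, AT2G07830, AT2G07741, AT2G07768, AT2G07734, AT2G07815, AT2G07656, AT2G07732, AT2G07739 and AOX1A are not covered by it and were picked with their values in view.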

Additional observations from a re-analysis of the deposited data

How the results depend on the processing

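The main limits are 2 libraries per genotype, low counts and a *mettl4-1* replicate 1 that stands apart. The *mettl4-1* libraries also differed outside the organelle rows and these 122 genes. There a chi-square test against counting error found 1486 of 21499 genes different between them, at an adjusted p under 0.05. For the Col-0 pair this number was 159 of 21508. Over all 122 genes, 14 were called higher, 8 with an adjusted p, and the median log2 fold change was 1.66 and that of the sum 0.51. With no filter on low counts, a fit that also tested genes with very few counts, 23 were called and the median was 1.26. No share over all genes is given beside the counts of the alternative fits in this section. These counts therefore describe only how the calls shift with the setting. With 10 or more counts in every library, whether asked of all genes or of these genes only, 7 were called, 5 with an adjusted p, and the median was 0.68. DESeq2 called 12, without AT2G07674 and AT2G07715. With an adjusted p, DESeq2 called 3, limma-voom 4, and the fit without organelle rows 13. Leaving out each library in turn gave 11 to 15 calls, 4 to 12 with an adjusted p, medians of 0.94 to 1.77 and log2 changes of the sum of 0.29 to 0.72, and 0 genes were called lower. With only the inside genes the log2 change of the sum was 1.35, and without *mettl4-1* replicate 1, an alternative chosen after seeing the data, 4 were called with an adjusted p, the median was 1.02 and the sum 0.75. Over the same 4 fits the log2 fold change of AT2G07751 lay between −0.016 and 0.32 and that of AT2G07774 between −0.050 and 0.91. Both were negative without Col-0 replicate 1, and AT2G07774 was called higher without Col-0 replicate 2. Fewer genes tested or fewer libraries are part of the filter and left-out settings, and the cause of the other shifts was not tested. Replicate numbers did not pair the libraries (r = −0.028 between deviations of same-numbered libraries over 21673 genes), and with a replicate block 14 were called, 11 with an adjusted p, with a median of 1.59.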
